A study of Mus musculus with 11 samples.

Results

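The genes described here are ligands and receptors of the tumour necrosis factor (TNF) superfamily, measured in T cells cultured with dendritic cells from different organs. A gene was included when a probe set carried its symbol as the only one and the symbol began with Tnfrsf or Tnfsf, with 1 Tnfrsf symbol left out, or was Tnf, Lta, Ltb, Ltbr, Cd27, Cd40, Cd40lg, Cd70, Fas or Fasl. This gave 35 of the 12393 genes with a probe set of their own, each represented by its probe set of highest mean. Of the 35, 24 lay in the upper 60% of genes by mean level and were tested, and 11 lay below it.

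All groups were T cells of the B10.BR mouse strain cultured for 4 days with dendritic cells of the C57BL/6 strain, and they differed in the organ that had supplied the dendritic cells. The dendritic cells came from liver, MLN, PLN or spleen. The labels do not spell out MLN and PLN. Replicates were numbered 2, 3 and 4 for liver, MLN and PLN (3 arrays in each group) and 3 and 4 for spleen (2 arrays). No group was cultured without dendritic cells, and the labels do not say how the T cells were recovered from the cultures. The labels also do not say whether the numbers mark separate cultures, animals or days, so each p-value is set against a spread between arrays that may be technical only.

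Ligands of the TNF superfamily are mostly trimeric proteins on the cell surface or shed from it, and their receptors recruit adaptor proteins through the cytoplasmic tail. Receptors without a death domain, such as Tnfrsf4 (OX40), Tnfrsf8 (CD30), Tnfrsf9 (4-1BB) and Cd27, bind TRAF adaptors and lead to NF-kappaB and MAP kinase signalling, and several of them are costimulatory receptors of activated T cells. Receptors with a death domain, such as Fas and Tnfrsf1a, can lead to caspase activation, and decoy receptors bind ligand without a full signalling tail. In contacts between T cells and dendritic cells the ligands and receptors are divided between both cells: Cd40 is best known on the antigen-presenting cell and Cd40lg on the T cell, and Tnfsf4 and Tnfsf9 are best known on the antigen-presenting cell, opposite Tnfrsf4 and Tnfrsf9. Levels below are quantile-normalised log2(intensity + 16) values, and all differences are on that scale, which understates the change of dim genes. Values of different genes are not set against each other, since each comes from another probe set.

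The promoters of 4 members are shown because the results turn on these genes: Tnfrsf4 and Tnfrsf8 are the pair called between organs, and the neighbouring lymphotoxin genes Lta and Ltb differed in opposite directions between replicate numbers. Each sequence holds the 250 bases before the annotated start in RefSeq, build GRCm38.p6, 5′ to 3′ on the gene's strand, and capitals mark matches to the NF-kappaB (kappaB) consensus or the AP-1 site. Tnfrsf4 is at chr4:156013445-156013694 on the plus strand, Tnfrsf8 at chr4:145315165-145315414 on the minus strand, Lta at chr17:35205352-35205601 on the minus strand and Ltb at chr17:35194257-35194506 on the plus strand.
Tnfrsf4: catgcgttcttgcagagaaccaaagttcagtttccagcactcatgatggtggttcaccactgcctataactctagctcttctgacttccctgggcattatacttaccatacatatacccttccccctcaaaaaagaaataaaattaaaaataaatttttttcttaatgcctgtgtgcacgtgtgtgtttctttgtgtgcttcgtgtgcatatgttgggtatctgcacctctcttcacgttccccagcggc
Tnfrsf8: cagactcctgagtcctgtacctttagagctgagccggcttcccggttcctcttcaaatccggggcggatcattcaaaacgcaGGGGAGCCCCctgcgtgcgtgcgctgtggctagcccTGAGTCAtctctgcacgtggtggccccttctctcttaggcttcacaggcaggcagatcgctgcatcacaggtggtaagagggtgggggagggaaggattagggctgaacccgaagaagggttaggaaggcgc
Lta: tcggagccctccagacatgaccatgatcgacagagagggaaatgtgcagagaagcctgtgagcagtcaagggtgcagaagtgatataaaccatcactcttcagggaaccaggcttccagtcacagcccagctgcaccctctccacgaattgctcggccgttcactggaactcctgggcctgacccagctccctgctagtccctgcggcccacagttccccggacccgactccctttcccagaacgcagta
Ltb: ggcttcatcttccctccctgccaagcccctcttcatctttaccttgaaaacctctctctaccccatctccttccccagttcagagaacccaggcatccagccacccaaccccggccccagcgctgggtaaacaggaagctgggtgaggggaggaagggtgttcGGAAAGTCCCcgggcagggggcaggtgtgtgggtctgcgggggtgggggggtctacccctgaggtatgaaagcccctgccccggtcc

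The Tnfrsf8 promoter held a match to the kappaB consensus whose first base was 168 bases before the start, and an AP-1 match from 132 bases before it. In Ltb a kappaB match began 87 bases before the start. Neither motif was found in these windows of Tnfrsf4 and Lta. Promoters were listed for 27 of the 35 members. The kappaB consensus, searched on both strands, matched 2 of these 27 (7.41%) and 3.75% of all 27025 listed promoters of this length. The AP-1 site, TGANTCA, read the same on both strands, matched 3 of the 27 (11.1%), in Tnfrsf8, Fas and Tnfsf14, and 6.87% of all. A match is a description of the letters and not a measured binding site.

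The cells had the markers their label names: of 11 listed T cell genes 9 were measured, all 9 passed the level filter, and their summed intensity lay between 23653 and 33324 on the 11 arrays. Markers of other cell types were also measured. For the dendritic cell and class II list, 12 of 13 genes were measured and none was at 0. Its summed intensity was 6390 to 6911 on the arrays numbered 2, 9192 to 10475 on those numbered 3 and 5281 to 6796 on those numbered 4. The natural killer (NK) cell list, 5 of 6 measured, summed to 3184 to 6787, 3257 to 4976 and 6614 to 9439 on the arrays of the same numbers. The B cell and plasma cell list, 9 of 11 measured, lay between 9288 and 13265 in all, most of it from Ighm. In such bulk RNA, fewer cells of a type and less RNA per cell cannot be told apart. Arrays of the same number deviated together from their organ means (processing section), so each organ comparison is given both without and with the number as a block.

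Between organs, the members that stood out were 2 costimulatory receptors, Tnfrsf4 and Tnfrsf8, lower after culture with dendritic cells of the liver. Without the block, limma called none of the 24 tested members in any organ comparison. Of the 7436 tested genes, 0.0403% were called in the F-test of the 4 organs, 0% in liver against the other organs, 0.0941% in MLN, 0% in PLN and 0% in spleen. At an unadjusted p under 0.05 there was 1 member in the F-test (2.56% of all genes), 1 in liver (4.26%), 0 in MLN (3.71%), 1 in PLN (1.21%) and 0 in spleen (1.91%). With the block, limma called 2 of 24 members (8.33%) in the F-test, where 1.98% of all genes were called, and the same 2 in liver against the others, where 2.14% were called. It called 0 members in MLN (1.36% of all genes), 0 in PLN (0.0134%) and 0 in spleen (0%). At an unadjusted p under 0.05 the blocked fit had 7 members in the F-test (15.5% of all genes), 8 in liver (15.7%), 6 in MLN (13.5%), 6 in PLN (8.12%) and 2 in spleen (8.71%).

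Tnfrsf4, the costimulatory receptor OX40, read 11.46, 11.87 and 11.13 on the liver arrays numbered 2, 3 and 4. The MLN arrays read 12.36, 12.24 and 11.81, the PLN arrays 12.43, 12.25 and 11.54, and the spleen arrays numbered 3 and 4 read 12.17 and 11.21. The liver array was the lowest within each number, although over all arrays the organs overlapped. The mean was 11.49 ± 0.37 (SD, n = 3) in liver, 12.13 ± 0.29 (SD, n = 3) in MLN, 12.07 ± 0.47 (SD, n = 3) in PLN and 11.69 ± 0.68 (SD, n = 2) in spleen. With the block, liver lay below the mean of the other organs by a log2 difference of -0.51 (SE 0.0962, limma adjusted p = 0.0223). Without the block the difference was -0.48 (SE 0.247, limma adjusted p = 0.999925). Within numbers 2, 3 and 4 the liver array differed from the mean of the others by -0.93, -0.34 and -0.39.

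Tnfrsf8, the receptor CD30 of activated lymphocytes, read 8.28, 8.33 and 8.76 on the liver arrays numbered 2, 3 and 4. The MLN arrays read 8.86, 9.18 and 9.78, the PLN arrays 9.34, 8.79 and 9.79, and the spleen arrays 8.75 and 8.99. Liver was again the lowest within every number, and overlap with the other organs came from the liver array numbered 4. The organ means were 8.46 ± 0.26 (SD, n = 3) in liver, 9.27 ± 0.47 (SD, n = 3) in MLN, 9.30 ± 0.50 (SD, n = 3) in PLN and 8.87 ± 0.17 (SD, n = 2) in spleen. With the block, liver differed from the others by -0.66 (SE 0.132, limma adjusted p = 0.0279), and without it by -0.69 (SE 0.233, limma adjusted p = 0.999925). The within-number differences were -0.82, -0.57 and -0.76 for numbers 2, 3 and 4. Tnfsf8, the ligand of this receptor, was not called in the blocked liver comparison (limma adjusted p = 0.985).

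Both blocked liver differences kept their sign under the 17 alternatives run, at -0.60 to -0.36 for Tnfrsf4 and -0.74 to -0.59 for Tnfrsf8, while the adjusted p crossed 0.05 in some of them. Tnfrsf4 lost its call in 6 of the 17. These included leaving out the liver array numbered 2 (-0.36, limma adjusted p = 0.147), or liver 4, MLN 2 or spleen 3 (limma adjusted p = 0.0814, 0.0638 and 0.0693). Tnfrsf8 lost its call in 7 of the 17, among them leaving out liver 2, 3 or 4, PLN 2 or 4, or spleen 3 (limma adjusted p = 0.0517 to 0.177). Both calls were also lost when all genes were tested without the level filter. Beside these receptors, the NK cell list summed to 4976 to 9439 in liver, 3184 to 6614 in MLN, 4198 to 6703 in PLN and 4016 to 7849 in spleen, and with the block 2 of its 4 tested genes were higher in liver. The macrophage and monocyte list, 10 of 10 measured and none at 0, summed to 2921 to 3887 in liver, 2409 to 3253 in MLN, 2625 to 3293 in PLN and 3548 to 4169 in spleen. With the block, 1 of its 5 tested genes was higher in liver, Lyz2 (0.74, limma adjusted p = 0.0425), and 1 of the 9 tested dendritic cell and class II genes was lower, Batf3 (-0.69, limma adjusted p = 0.0384). None of the 9 T cell markers was called there, where 2.14% of all genes were, and all 9 had a difference above 0, with a median of 0.15. The part of these cell types in the liver values was not tested.

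**Figure D1:**
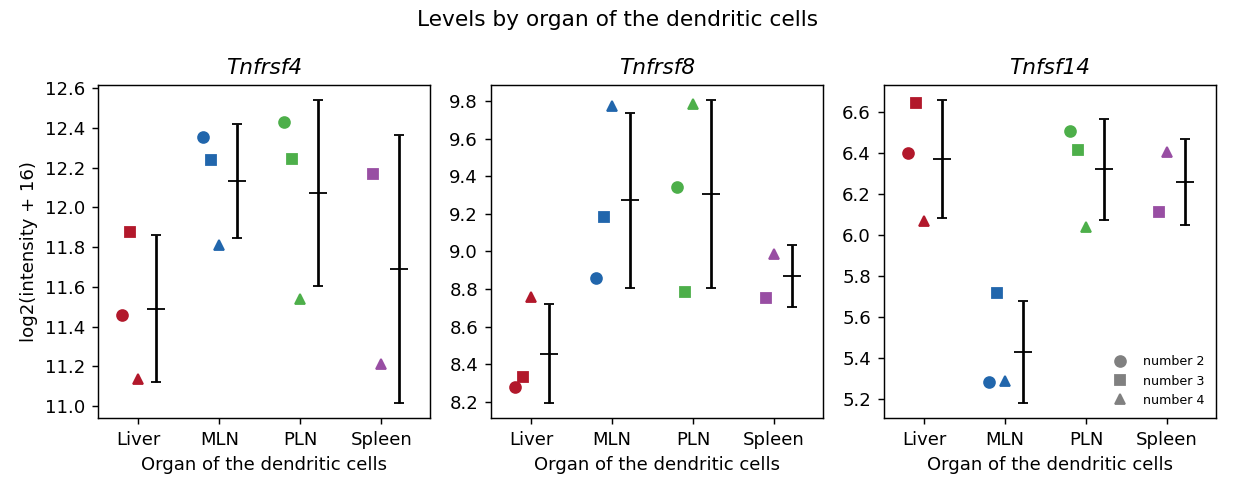
Levels of Tnfrsf4, Tnfrsf8 and Tnfsf14, as quantile-normalised log2(intensity + 16), by organ of the dendritic cells. Points are arrays with the shape giving the replicate number, and the black bar and whiskers are the organ mean and SD. The liver point is the lowest of each shape for Tnfrsf4 and Tnfrsf8, and the 3 MLN points of Tnfsf14, between 5.28 and 5.71, lie below all others.

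The other costimulatory receptors were not called between organs with or without the block. Cd27, the receptor of Cd70, had a blocked liver difference of 0.38 (limma adjusted p = 0.127). It passed when the PLN array numbered 3 was left out (0.43, limma adjusted p = 0.0437). Tnfrsf9 (4-1BB) differed by -0.25 (limma adjusted p = 0.138) and Tnfrsf25 (death receptor 3) by -0.29 (limma adjusted p = 0.300). Over the 24 members the blocked liver differences had a median of -0.11, with 6 above 0, against a median of 0.01 over all genes, of which 53.2% lay above 0.

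The ligands likewise gave no call by organ. Tnfsf4 (OX40 ligand), which pairs with Tnfrsf4, had a blocked liver difference of 0.29 (limma adjusted p = 0.215), opposite in sign to its receptor. It read 8.50, 8.47 and 8.24 in liver, 8.32, 8.42 and 7.83 in MLN, 7.87, 8.30 and 7.72 in PLN, and 8.22 and 8.10 in spleen. Ltb (lymphotoxin beta) differed by 0.28 in liver (limma adjusted p = 0.231) and Lta (lymphotoxin alpha) by 0.83 in PLN (limma adjusted p = 0.524). Tnf itself overlapped between all organs: 8.57, 9.15 and 8.26 in liver, 8.41, 8.46 and 8.18 in MLN, 8.33, 8.59 and 9.03 in PLN, and 9.23 and 8.41 in spleen.

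In the spleen group the TNF, lymphotoxin and death receptors Tnfrsf1a and Ltbr lay above every other array without being called. The share of all tested genes that did so was not counted. Tnfrsf1a, the main TNF receptor with a death domain, read 9.61 and 9.65 in spleen and at most 9.54 elsewhere, with a blocked difference of 0.36 (limma adjusted p = 0.446). Ltbr, the lymphotoxin beta receptor, read 7.44 and 7.37 in spleen. Its other arrays read 6.59, 6.99 and 7.26 in liver, 7.31, 6.89 and 6.85 in PLN, and 7.04, 7.12 and 7.0004 in MLN. With 2 spleen arrays, no array numbered 2 stands on the spleen side. All 5 tested macrophage and monocyte genes also had a spleen difference above 0, with a median of 0.34 in both fits and no call. Of the genes on that list below the level filter, Adgre1 had its lowest organ mean in spleen (6.49) and Fcgr1 its highest (5.82). The part of that list was not tested. Fas was also higher in spleen by 0.36 in the blocked fit, without passing (limma adjusted p = 0.523). The B cell survival receptor Tnfrsf13c (BAFF receptor) had its highest array of each number in PLN, with a blocked difference of 0.37 (limma adjusted p = 0.470).

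Among the 11 members below the level filter, Tnfsf14 (LIGHT, a ligand of Tnfrsf14 and Ltbr) was the one whose arrays of 1 organ stood apart. It read 5.28, 5.71 and 5.29 in MLN. The other groups read 6.40, 6.64 and 6.07 in liver, 6.51, 6.41 and 6.04 in PLN, and 6.11 and 6.40 in spleen. When the filter was dropped, MLN differed from the other organs by -0.89 (SE 0.194, limma adjusted p = 0.389), and with the block by -0.89 (SE 0.201, limma adjusted p = 0.121), so it was not called in either fit. The deposited intensities behind it were 19.7 to 37 in MLN and 45.8 to 83.4 elsewhere, and its second, dimmer probe set differed by -0.11 in the blocked fit. It was singled out after its values were seen. The other members below the filter were Cd40lg, Tnfrsf10b, Tnfrsf11a, Tnfrsf11b, Tnfrsf12a, Tnfrsf14, Tnfrsf17, Tnfrsf19, Tnfsf10 and Tnfsf13b. Their intensities lay between 2.6 and 134.6 on every array. Among these, Cd40lg, the T cell ligand of Cd40, read 5.19 to 6.72, and Tnfrsf17 (BCMA), a receptor of plasma cells, 4.25 to 5.96. The Tnfrsf17 arrays read 4.69, 4.90 and 4.80 in liver, 5.23, 4.37 and 5.28 in MLN, 5.38, 4.25 and 5.96 in PLN, and 4.57 and 5.79 in spleen. With all genes tested and no filter, Tnfrsf17 was the 1 dim member called in any comparison: it was higher in number 4 than in number 3 by 0.94 (SE 0.272, limma adjusted p = 0.0309). In that comparison 2 of the 5 tested B cell and plasma cell genes were also higher, Cd79a and Cd79b, beside 43.3% called of all genes above the filter. The median over the 5 was 0.38, and their part was not tested.

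More of the members' variance went with the replicate number than with the organ. Pooled over the 24 members, the number took up 64.85% of the variance, and the organ, after the number, 18.59%. Such pooled shares weigh the most variable genes most. Over all tested genes the same shares were 57.88% and 21.98%. The F-test of the numbers called 17 of 24 members (70.8%), against 48.1% of all genes. In number 4 against number 3, limma called 17 members (70.8%), 8 higher and 9 lower in number 4, against 43.3% of all genes. In number 3 against number 2 it called 9 (37.5%), 6 higher and 3 lower in number 3, against 18.9% of all genes. These comparisons share the arrays numbered 3, so their values are given side by side and not as independent evidence of each other. Each called gene differed in the same direction in every organ compared, 4 of 4 organs for number 4 against 3 and 3 of 3 for number 3 against 2.

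**Figure D2:**
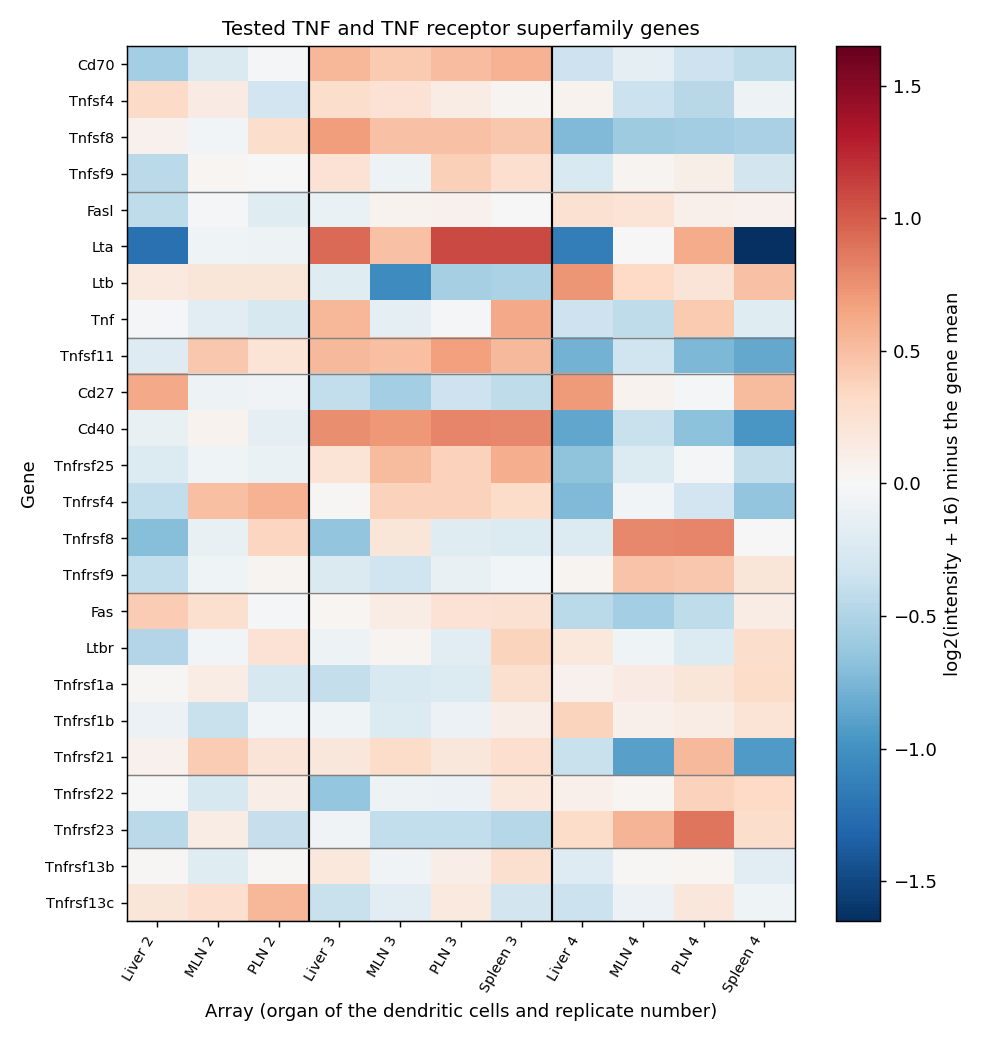
Levels of the 24 tested members on the 11 arrays, as log2(intensity + 16) minus the mean of each gene; red is above and blue below the gene's mean. Columns are arrays grouped by replicate number, parted by black lines, and grey lines part the roles, from costimulatory ligands at the top to B cell survival receptors at the bottom. Cd40, Cd70, Tnfsf8 and Tnfsf11 are red on all 4 arrays numbered 3, and Ltb and Cd27 are blue there.

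Of the 6 tested costimulatory receptors, all 6 were called in number 4 against number 3, 3 higher and 3 lower. In that comparison 43.3% of all genes were called. Cd40, the receptor that licenses antigen-presenting cells, read 7.98, 8.16 and 7.94 on the liver, MLN and PLN arrays numbered 2. The liver, MLN, PLN and spleen arrays numbered 3 read 8.86, 8.82, 8.91 and 8.89, and those numbered 4 read 7.25, 7.73, 7.42 and 7.14. The 3 numbers did not overlap. Number 4 differed from number 3 by -1.49 (SE 0.118, limma adjusted p = 3.04e-06) and number 3 from number 2 by 0.88 (SE 0.132, limma adjusted p = 0.00133). Its second probe set gave -1.15 and 0.84. The summed dendritic cell and class II list was also highest on the arrays numbered 3. With number 4 against 3, 7 of its 9 tested genes were lower and 1 was higher, and its median difference was -0.59. Itgax ran against the list, with a mean of 6.99 on the arrays numbered 3 and 8.84 on those numbered 4. The mean of H2-Ab1 also rose, from 8.25 to 8.58, as did that of Ciita, below the level filter, from 6.18 to 6.31. The part of dendritic cell RNA in the Cd40 values was not tested.

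Cd27, a costimulatory receptor of naive and memory T cells, went the other way. In the order liver, MLN and PLN, with spleen after them where it was measured, it read 9.93, 9.22 and 9.26 on the arrays numbered 2, 8.91, 8.75, 8.97 and 8.89 on those numbered 3, and 10.02, 9.37, 9.28 and 9.83 on those numbered 4. Number 3 lay below all other arrays. The differences were 0.74 for number 4 against 3 (SE 0.120, limma adjusted p = 0.000405) and -0.63 for number 3 against 2 (SE 0.134, limma adjusted p = 0.00809). The second call was lost in 1 of 18 alternative settings (limma adjusted p = 0.0581). Beside Cd27 and Ltb, which share these directions, number 4 against 3 had 4 of 9 T cell markers higher and 2 lower. The 4 tested NK cell genes and 2 of 5 B cell and plasma cell genes were higher, where 43.3% of all genes were called. The mean of the NK cell gene Ncr1, below the level filter, was lower. In number 3 against 2, where 18.9% of all genes were called, the T cell list had 1 higher and 1 lower. The NK cell list had 2 higher and 1 lower, and the B cell and plasma cell list 1 lower, Cd79b (-0.87, limma adjusted p = 0.00248). The part of these lists was not tested.

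Tnfrsf9 (4-1BB) read 11.74, 12.08 and 12.19 in number 2, 11.91, 11.82, 12.02 and 12.10 in number 3, and 12.20, 12.61, 12.59 and 12.34 in number 4, in the same organ order. Number 4 was above every other array, by 0.47 against number 3 (SE 0.0812, limma adjusted p = 0.000642). Klrk1, Klrd1, Tyrobp and Eomes, the 4 tested genes of the NK cell list, were also higher in number 4 than in number 3. Ncr1, measured below the level filter, was not, with means of 6.32 in number 3 and 6.15 in number 4. The part of this list was not tested. The 3 probe sets of Tnfrsf9 did not move alike: the second differed by 0.19 and a dim one by -0.39. The mean of the 3 was not called (0.09, limma adjusted p = 0.360). Tnfrsf8 was likewise higher in number 4 than in number 3, by 0.56 (SE 0.136, limma adjusted p = 0.00549), a call lost without the organ term (limma adjusted p = 0.116).

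Tnfrsf4 and Tnfrsf25 were lower in number 4 than in number 3. For Tnfrsf4 the difference was -0.71 (SE 0.0994, limma adjusted p = 0.000156), while number 3 and number 2 differed by 0.08 and were not called apart. Tnfrsf25, the T cell receptor of the ligand TL1A, read 7.31, 7.46 and 7.43 in number 2, 7.76, 8.06, 7.92 and 8.13 in number 3, and 6.87, 7.31, 7.51 and 7.14 in number 4. All arrays numbered 3 lay above the others. The differences were -0.76 (SE 0.133, limma adjusted p = 0.000729) for number 4 against 3 and 0.55 (SE 0.149, limma adjusted p = 0.0242) for number 3 against 2. The second call was lost in 6 of 18 alternative settings, among them leaving out liver 3, MLN 2, MLN 3 or PLN 2 (limma adjusted p = 0.0630 to 0.114).

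**Figure D3:**
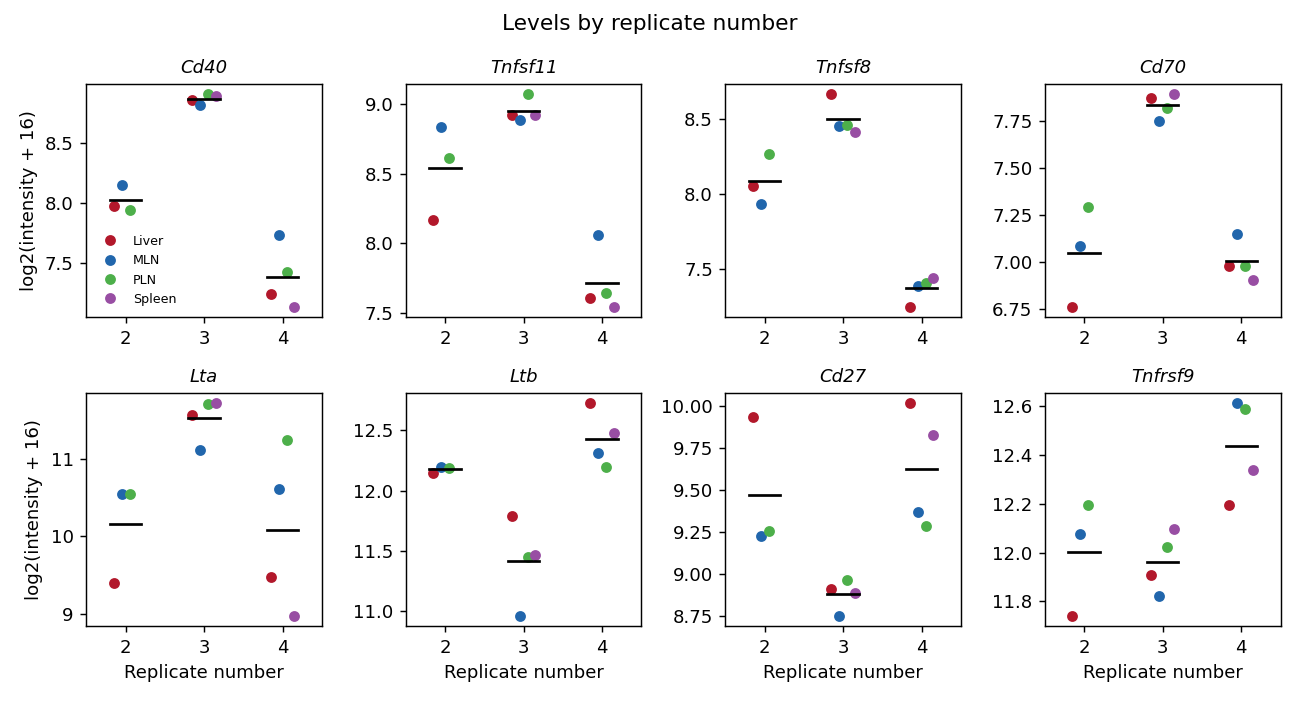
Levels of 8 members, as quantile-normalised log2(intensity + 16), by replicate number; points are arrays coloured by organ and bars are the mean of each number. The number 3 arrays of Cd40, Tnfsf11, Tnfsf8 and Cd70 lie above all others, those of Ltb and Cd27 below all others, and the number 4 arrays of Tnfrsf9 above all others.

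Of the 4 tested costimulatory ligands, 3 were called lower in number 4 than in number 3 and none higher, beside 43.3% of all genes called. Tnfsf8 (CD30 ligand) read 8.06, 7.93 and 8.27 in number 2, 8.67, 8.46, 8.46 and 8.42 in number 3, and 7.25, 7.39, 7.41 and 7.44 in number 4. The numbers were fully separate. Number 4 against 3 gave -1.13 (SE 0.114, limma adjusted p = 1.55e-05). Number 3 against 2 gave 0.42 (SE 0.128, limma adjusted p = 0.0405). That call was lost in 10 of 18 alternative settings, among them leaving out liver 2 or 3, MLN 2, 3 or 4, or PLN 2 or 3 (limma adjusted p = 0.0509 to 0.179). Tnfsf8 and its receptor Tnfrsf8 thus differed in opposite directions between numbers 3 and 4.

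Cd70, the ligand of Cd27, read 6.76, 7.08 and 7.29 in number 2, 7.87, 7.75, 7.82 and 7.89 in number 3, and 6.98, 7.15, 6.98 and 6.90 in number 4. Number 3 stood above the rest. The differences were -0.83 for number 4 against 3 (SE 0.144, limma adjusted p = 0.000685) and 0.80 for number 3 against 2 (SE 0.161, limma adjusted p = 0.00629). This ligand and its receptor Cd27 were opposite in sign in both comparisons. Cd70, Tnfsf8, Cd40, Tnfsf11 and Lta had their highest mean in number 3. Of the other tested members, Tnf, Tnfsf4, Tnfsf9, Tnfrsf4, Tnfrsf13b, Tnfrsf21 and Tnfrsf25 also had their highest mean in number 3. The summed dendritic cell and class II list was also highest there, though Itgax, H2-Ab1 and Ciita, the last below the level filter, were not. The part of this list in these genes was not tested. Tnfsf4 differed by -0.38 for number 4 against 3 (SE 0.116, limma adjusted p = 0.0186). That call was lost in 4 of 18 alternative settings, among them leaving out MLN 3, MLN 4 or PLN 3 (limma adjusted p = 0.0611 to 0.0856). Tnfsf9 (4-1BB ligand), with -0.32 (limma adjusted p = 0.0527) and 0.37 (limma adjusted p = 0.0779), was called in neither.

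Tnfsf11 (RANKL), a ligand made by activated T cells that acts on Tnfrsf11a, read 8.17, 8.84 and 8.61 in number 2, 8.92, 8.88, 9.07 and 8.92 in number 3, and 7.61, 8.06, 7.65 and 7.55 in number 4. Number 4 lay below every other array. The difference from number 3 was -1.23 (SE 0.122, limma adjusted p = 1.38e-05), and the second probe set gave -1.27. Number 3 against 2 gave 0.44 (SE 0.137, limma adjusted p = 0.0430). That call was lost in 12 of 18 alternative settings, among them leaving out any array but PLN 4 or MLN 3 (limma adjusted p = 0.0512 to 0.210).

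The lymphotoxin genes Lta and Ltb, whose products form the membrane heterotrimer that binds Ltbr, lie beside each other on chromosome 17 with Tnf between them, and they differed in opposite directions. Lta read 9.39, 10.55 and 10.55 in number 2, 11.57, 11.11, 11.71 and 11.72 in number 3, and 9.48, 10.62, 11.24 and 8.98 in number 4. Its deposited intensity ran from 498.8 on spleen 4 to 3389.6 on PLN 3, and the PLN 4 array overlapped number 3. The differences were -1.45 (SE 0.310, limma adjusted p = 0.00265) for number 4 against 3 and 1.51 (SE 0.346, limma adjusted p = 0.0110) for number 3 against 2. The second call was lost in 3 of 18 alternative settings, among them leaving out liver 2 (limma adjusted p = 0.0588) or PLN 2 (limma adjusted p = 0.0584).

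Ltb read 12.15, 12.20 and 12.19 in number 2, 11.79, 10.96, 11.45 and 11.47 in number 3, and 12.73, 12.32, 12.20 and 12.48 in number 4. Number 3 was the lowest, with no overlap. Number 4 against 3 gave 1.01 (SE 0.112, limma adjusted p = 2.88e-05) and number 3 against 2 gave -0.78 (SE 0.125, limma adjusted p = 0.00196). Fasl, the ligand of Fas on cytotoxic T cells, read 9.32, 9.71 and 9.54 in number 2, 9.63, 9.80, 9.81 and 9.74 in number 3, and 9.996, 9.97, 9.83 and 9.82 in number 4. Every array numbered 4 lay above the others. It was called in the F-test of the numbers (limma adjusted p = 0.0132) and in neither pairwise comparison, and its second probe set differed by 0.01 between numbers 4 and 3. Tnf was not called by number.

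Among the 5 tested TNF, lymphotoxin and death receptors, 3 were called in number 4 against number 3, beside 43.3% of all genes. Fas read 8.59, 8.43 and 8.16 in number 2, 8.20, 8.29, 8.41 and 8.43 in number 3, and 7.73, 7.61, 7.75 and 8.29 in number 4. It was lower in number 4, with a difference of -0.48 (SE 0.128, limma adjusted p = 0.00916), although spleen 4 overlapped number 3. Tnfrsf1a and Tnfrsf1b, the receptors of Tnf, were higher by 0.33 (SE 0.102, limma adjusted p = 0.0221) and 0.27 (SE 0.0808, limma adjusted p = 0.0171). Tnfrsf1a read 9.36, 9.47 and 9.08 in number 2, 8.96, 9.10, 9.12 and 9.61 in number 3, and 9.42, 9.48, 9.54 and 9.65 in number 4. The Tnfrsf1b arrays read 9.38, 9.12 and 9.43, then 9.41, 9.25, 9.39 and 9.59, then 9.85, 9.57, 9.60 and 9.70.

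Both of these small differences were fragile. Tnfrsf1a was not called in 5 of 18 alternative settings, among them leaving out liver 3, liver 4, MLN 3 or PLN 4 (limma adjusted p = 0.0585 to 0.0893). The Tnfrsf1b call was lost in 6 of 18 alternative settings, among them leaving out liver 3, liver 4, MLN 4 or PLN 3 (limma adjusted p = 0.0512 to 0.0698). Its second probe set had the opposite sign, -0.17, and the mean of both was not called (0.05, limma adjusted p = 0.682). Tnfrsf21 (death receptor 6), with -0.65 (limma adjusted p = 0.0555), was not called, and Ltbr was called in no comparison of numbers.

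The decoy receptors Tnfrsf22 and Tnfrsf23, which bind the ligand TRAIL in mice, were both higher in number 4 than in number 3. Tnfrsf23 read 6.61, 7.17 and 6.67 in number 2, 6.997, 6.64, 6.65 and 6.59 in number 3, and 7.36, 7.62, 7.94 and 7.34 in number 4, and every array numbered 4 lay above the others. The difference was 0.85 (SE 0.189, limma adjusted p = 0.00340). For Tnfrsf22 it was 0.37 (SE 0.137, limma adjusted p = 0.0471), from 7.19, 7.74, 7.74 and 8.004 in number 3 to 7.91, 7.86, 8.21 and 8.15 in number 4. Number 2 read 7.82, 7.57 and 7.94. That call was lost in 12 of 18 alternative settings, among them leaving out liver 3 or 4, MLN 4, PLN 2, 3 or 4, or spleen 3 or 4 (limma adjusted p = 0.0514 to 0.190).

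For the B cell survival receptors, which bind BAFF and APRIL, Tnfrsf13c read 7.95, 8.03 and 8.30 in number 2, 7.39, 7.58, 7.91 and 7.45 in number 3, and 7.40, 7.65, 7.94 and 7.68 in number 4. All arrays numbered 2 lay above the rest. Number 3 against 2 gave -0.49 (SE 0.121, limma adjusted p = 0.0154). That call was lost in 4 of 18 alternative settings, among them leaving out liver 2, MLN 2 or PLN 2 (limma adjusted p = 0.0532 to 0.0697). The B cell and plasma cell list summed to 12936 to 13265 in number 2, 9288 to 13132 in number 3 and 11374 to 12181 in number 4. Most of each sum came from Ighm, with a mean level of 13.24, ahead of Jchain at 10.20. The part of this list was not tested. Tnfrsf13b (TACI) lay within 9.53 to 10.01 and was not called (-0.21, limma adjusted p = 0.0859, for number 4 against 3).

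**Figure D4:**
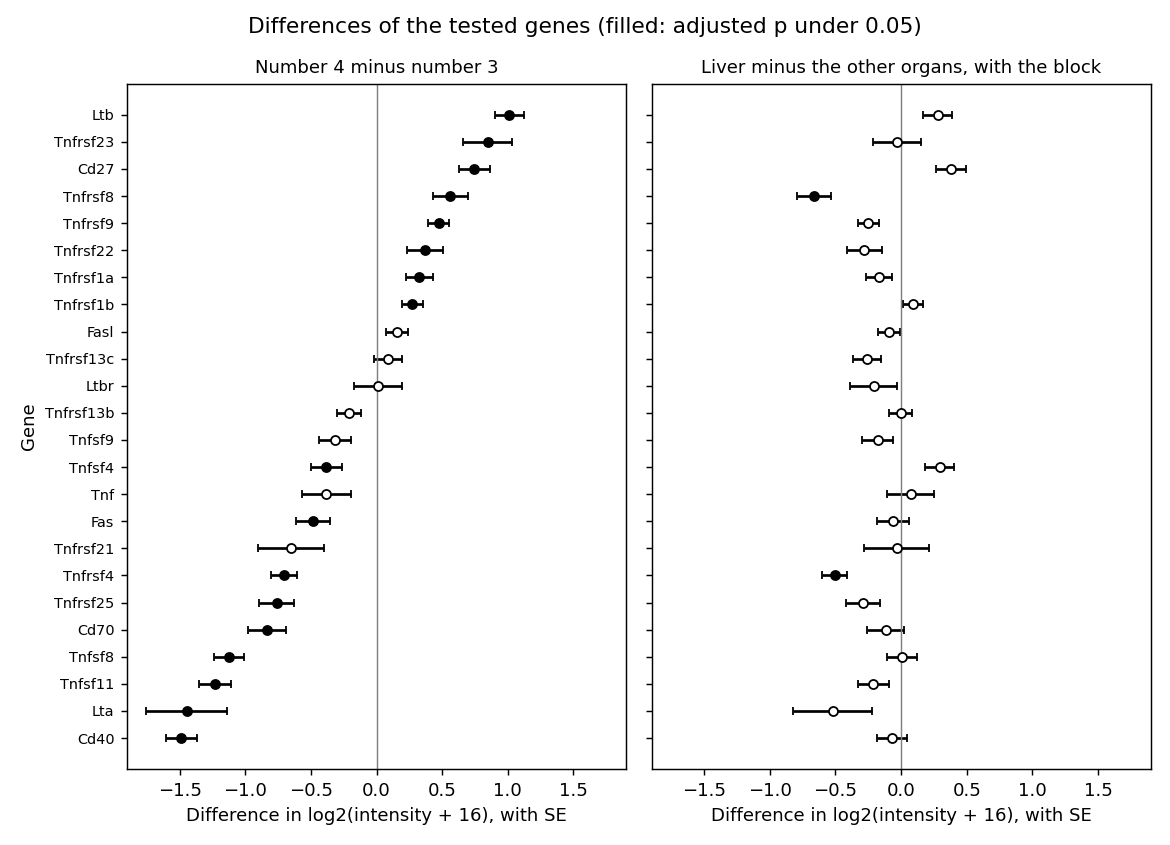
Differences in log2(intensity + 16) with their SE for the 24 tested members, number 4 minus number 3 (left) and liver minus the mean of the other organs with the number as a block (right). Filled points had a limma adjusted p under 0.05. The left panel runs from -1.49 for Cd40 to 1.01 for Ltb with 17 filled points, and the right panel has 2, Tnfrsf4 and Tnfrsf8.

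Without regard to sign, the members' differences between numbers 4 and 3 had a median of 0.52, and those of all tested genes 0.22. Between numbers 3 and 2 the medians were 0.22 and 0.16. The signed medians were -0.26 and 0.08 for the members and 0.01 and 0.00 for all genes. Of the 17 calls in number 4 against 3, 11 held under every one of 18 alternative settings: Cd27, Cd40, Cd70, Fas, Lta, Ltb, Tnfrsf4, Tnfrsf23, Tnfrsf25, Tnfsf8 and Tnfsf11. Of the 9 calls in number 3 against 2, 3 did: Cd40, Cd70 and Ltb.

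The adaptor, death-domain and NF-kappaB genes listed beside these receptors gave no call by organ with or without the block. Of 22 listed adaptor and death-domain genes 19 were tested. In number 4 against 3, 6 of the 19 were called, 2 higher and 4 lower, with a median of -0.06, where 43.3% of all genes were called. Map3k7 (the kinase TAK1) was lower, at -0.55 (SE 0.0711, limma adjusted p = 8.29e-05), as was Tnfaip8, at -0.34 (SE 0.0649, limma adjusted p = 0.00137). Adam17, the protease that sheds Tnf, was higher by 0.48 (SE 0.0879, limma adjusted p = 0.00101), and Tradd, the adaptor of Tnfrsf1a, by 0.46 (limma adjusted p = 0.00308). In number 3 against 2, where 18.9% of all genes were called, the single call was Casp8, the initiator caspase of death receptors, at 0.37 (SE 0.0839, limma adjusted p = 0.0104), named after its value was seen.

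Of 23 listed NF-kappaB subunits, inhibitors and targets, 19 were also tested. In number 4 against 3, 7 of the 19 were called, 3 higher and 4 lower, with a median of -0.19, beside 43.3% of all genes. In number 3 against 2, 7 were called, 6 higher and 1 lower, with a median of 0.18, beside 18.9% of all genes. Ier3, an early response gene, had the smallest p and ran opposite to most of the list: 0.77 (SE 0.0829, limma adjusted p = 2.38e-05) and -0.80 (SE 0.0926, limma adjusted p = 0.000396). Nfkbia, the inhibitor IkappaB alpha and itself a target, gave -0.27 (limma adjusted p = 0.000241) and 0.18 (limma adjusted p = 0.0168). Ikbkb, a kinase of that inhibitor, was higher in number 4 than 3 by 0.44 (limma adjusted p = 0.000368), and Icam1, an adhesion molecule, was higher in number 3 than 2 by 0.66 (limma adjusted p = 0.00196). By organ, the smallest p-values of the 2 lists belonged to Map3k5, Birc3, Traf4 and Cflar, and to Tnip1, Bcl3, Bcl2l1 and Gadd45b, each with a limma adjusted p of 0.999943 in the F-test without the block.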

How the data were processed

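RNA of 11 T cell samples was measured on single-colour oligonucleotide arrays. The authors deposited 1 linear intensity per probe set, scaled between arrays as the values show; their software is not given in the sources used here. Of 22690 probe sets, 64 controls were left out, and 20380 had 1 symbol, 691 several and 1619 none. Intensities (medians 144.3 to 170.4) were transformed as log2(intensity + 16) and quantile normalized, with 1 probe set per gene by highest mean. The 7436 of 12393 genes in the upper 60% by mean entered limma 3.58.1 (R 4.3.3; lmFit, eBayes with trend, Benjamini-Hochberg at 0.05), checked on simulated data. The organ fit had 7 residual degrees of freedom; with the replicate number as a block, 5. The number fit has organ and number as terms.

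Deviations from organ means correlated at 0.412 to 0.731 for the 15 same-number pairs, so the numbers were taken to pair the arrays. For 30 pairs of different number and organ the correlations were -0.708 to 0.0841. Deviations cancel out within an organ, so these lower values partly follow from the higher ones of the same number. Values in every array are given for members called in any comparison or among the 3 smallest p; of the 2 signalling lists, up to 4 genes of smallest p in the organ and number F-tests are named. Members and lists were chosen with earlier results of these data known. The number of arrays limits the precision. Promoters were taken from RefSeq.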

Additional observations from a re-analysis of the deposited data

How the results depend on the processing

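Adding the replicate block raised the members called from 0 to 2 in the organ F-test and from 0 to 2 in liver against the others, and left MLN, PLN and spleen at 0. With the block, centring each array on its median gave 1 call in the organ F-test and 1 in liver, and testing all genes without the level filter gave 0 and 0, with 35 members and more genes tested; these settings of the blocked fit were chosen after seeing the data. Leaving out 1 array at a time with the block gave 0 to 2 calls in the organ F-test and 0 to 3 in liver, and over all genes 35 to 184 and 7 to 205, the lowest both without liver 2. For number 3 against 2 the calls fell from 9 to 5 without the organ term and lay between 4 and 9 with 1 array left out. The 17 calls of number 4 against 3 lay between 14 and 18 with 1 array left out. The split of higher to lower calls for number 4 against 3 was 8 to 9, and 6 to 10 after median centring; for number 3 against 2 it was 6 to 3 and 4 to 3. No result reversed in sign under the alternatives run, which include the mean of a gene's probe sets; taken singly, a second probe set of Tnfrsf1b and a dim one of Tnfrsf9 had the opposite sign for number 4 against 3. The cause of these changes was not tested. The 11 dim members were tested without the filter alone, and their low signal limits what those values show.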
